A study of Mus musculus with 12 samples.

Results

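A set of 10 genes that supply cells with acetyl-CoA or carry acetate across membranes was examined for H3K27ac, the acetylated form of lysine 27 of histone H3, in 4T1 cells. The genes were Acly, Slc25a1, Acss2, Acss1, Slc16a1, Slc16a3, Mpc1, Mpc2, Dlat and Cs. They were found by the gene symbol that the authors' annotation gave to each interval of the deposited table. The symbols of these 10 genes were on 45 of the 126464 intervals, and the table held 22264 gene symbols in all. A gene's level is the sum of its intervals, in reads multiplied by the spike-in factor of the library (scaled reads below).

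4T1 is a metastatic mouse mammary carcinoma line, labelled wild type. Cells were kept for 48 h in vehicle, acetate at 5 mM, etomoxir at 50 µM, or SB204990 at 50 µM in combinations, which made 6 treatments: vehicle, acetate, etomoxir, etomoxir + acetate, etomoxir + SB204990, and all of these agents together. Etomoxir blocks CPT1, which admits long-chain fatty acids to mitochondria, and SB204990 blocks the enzyme that Acly encodes. Every treatment had 2 libraries, 1 from each of 2 sets that differ by a suffix in the library names, here set 1 and set 2, and all libraries carried 7.5% human chromatin as a spike-in. SB204990 was never given without etomoxir, so its own effect was not measured, and the data come from 1 cell line in culture.

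The nucleus needs acetyl-CoA to acetylate histones. Pyruvate enters mitochondria through the carrier formed by Mpc1 and Mpc2, and the pyruvate dehydrogenase complex, of which Dlat is the acetyltransferase subunit, turns it into acetyl-CoA. Citrate synthase (Cs) joins this acetyl group to oxaloacetate, Slc25a1 exports the citrate, and ATP citrate lyase (Acly) splits it to give acetyl-CoA outside mitochondria. Acetate is activated by Acss2 in the cytosol and nucleus and by Acss1 in mitochondria, and the monocarboxylate transporters encoded by Slc16a1 and Slc16a3 carry lactate, pyruvate and related acids across the plasma membrane. H3K27ac lies at active promoters and enhancers, so the question was how strongly these genes carry the mark and whether it moves at them when their own substrates and inhibitors are given.

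Depth ranged from 7179165 to 16676442 reads in intervals per library. The lowest was the etomoxir + SB204990 library of set 2, which also had 6.61% of its reads in the 62561 intervals with a mean below 10, against 2.94% to 4.16% in the other 11 libraries. Among markers of mammary epithelial carcinoma, Cdh1 had 53.7, Krt8 50.2, Epcam 35.6 and Krt19 29.6 scaled reads per kb, and no interval carried the symbol of Krt18 or Krt7. Of markers of other cell types, Pecam1 had 41.4, Ptprc 25.2, Cdh5 22.6 and Cd3e 12.9 scaled reads per kb, and Alb had no interval. Whether other cells contributed was not tested. In a bulk measurement of this kind, more cells with the mark and more of the mark per cell cannot be told apart. The labels do not say whether the 2 libraries of a treatment came from separate cultures, so the p-values measure only the spread between these libraries, which may be technical.

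The promoters of 5 members are shown because they cover the spread of the results: Acly and Slc25a1 had start-site intervals under their own symbols, Acss2 and Slc16a1 had start-site intervals under another gene's symbol, and Slc16a3 had none. The letters are from RefSeq on GRCm38.p6, the build of the files (mm10), and run 5′ to 3′ on the gene's strand up to the base before the annotated start, leaving out bases that GENCODE M21 places in an exon. Capitals mark matches, on either strand, to the motifs described after the sequences. Acly lies on the minus strand (chr11:100528001-100528250), as does Slc25a1 (chr16:17928220-17928469), and Acss2 (chr2:155517793-155517947), Slc16a1 (chr3:104638414-104638663) and Slc16a3 (chr11:120948817-120949052) lie on the plus strand.
Acly: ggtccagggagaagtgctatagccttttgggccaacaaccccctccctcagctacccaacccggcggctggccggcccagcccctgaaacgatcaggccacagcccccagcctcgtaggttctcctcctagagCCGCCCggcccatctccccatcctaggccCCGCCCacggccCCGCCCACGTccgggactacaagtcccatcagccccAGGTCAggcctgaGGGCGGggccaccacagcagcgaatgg
Slc25a1: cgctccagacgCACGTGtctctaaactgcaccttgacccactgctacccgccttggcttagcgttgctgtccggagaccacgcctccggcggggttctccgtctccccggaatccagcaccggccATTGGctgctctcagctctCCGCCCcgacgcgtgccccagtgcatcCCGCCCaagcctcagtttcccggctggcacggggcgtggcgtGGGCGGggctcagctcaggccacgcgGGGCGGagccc
Acss2: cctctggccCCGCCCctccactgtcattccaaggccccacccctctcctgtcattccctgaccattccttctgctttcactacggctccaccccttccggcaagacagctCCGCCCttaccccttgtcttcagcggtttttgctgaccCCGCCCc
Slc16a1: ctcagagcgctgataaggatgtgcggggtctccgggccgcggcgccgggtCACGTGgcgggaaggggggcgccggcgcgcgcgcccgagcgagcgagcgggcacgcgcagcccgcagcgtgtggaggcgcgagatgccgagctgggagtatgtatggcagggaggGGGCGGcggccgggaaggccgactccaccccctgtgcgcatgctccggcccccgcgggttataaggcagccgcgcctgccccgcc
Slc16a3: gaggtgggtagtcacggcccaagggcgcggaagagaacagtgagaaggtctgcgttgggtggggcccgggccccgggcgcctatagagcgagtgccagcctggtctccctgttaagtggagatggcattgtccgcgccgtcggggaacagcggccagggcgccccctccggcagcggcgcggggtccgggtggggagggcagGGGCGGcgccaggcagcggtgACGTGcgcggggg

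The RefSeq table held 11 promoters for the 10 members, since Mpc1 had 2, and motifs were searched in the 250 bases before each start on both strands. All 11 held the GC box letters GGGCGG, against 32.7% of the 32851 promoters of the table. GC content of the member promoters ran from 55.2% at Cs to 76.4% at Slc16a1, and the median over the table was 52.4%. CCAAT stood in 5 of 11 promoters (33.8% of all promoters), the E-box CACGTG in 2 (6.02%), at Slc25a1 and Slc16a1, and AGGTCA, the half-site of nuclear receptors, in 2 (14% of all). The hypoxia core ACGTG, which also lies inside CACGTG, was present in 4 promoters (16.6% of all). The sterol regulatory letters TCACNCCAC were in none of the 11 and in 1.05% of all promoters. These are matches of letters in short windows and no measure of binding.

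Start-site levels of the members ranged from below the middle of all start-site genes to the upper part, and the mark was very weak at Acss1. Of the 10 genes, 8 had an interval that covered a GENCODE start site. These 8 intervals spanned 5064 to 16607 bp, while the median interval of the table was 715 bp. Slc16a1, a widely expressed monocarboxylate transporter, had the highest start-site level, with a mean of 792 scaled reads in chr3:104635821-104652427, above 78.6% of the 17628 start-site genes that passed a mean of 10. Cs followed with 747 scaled reads in chr10:128335921-128351629, and Acly had 499 in chr11:100518353-100529361. Slc25a1 (446 scaled reads, chr16:17919484-17931131), Mpc2 (356, chr1:165458355-165463418), Dlat (305, chr9:50655854-50661982) and Mpc1 (261, chr17:8280980-8287044) lay in the middle of the range. Acss2, the enzyme that activates acetate outside mitochondria, was the lowest of the 8 with 149 scaled reads in chr2:155514307-155519444, above 30.1% of start-site genes. Per kb, the order among start-site intervals differed. Mpc2 led with 70.2 scaled reads per kb, and Acss2 was again last with 29.0.

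**Figure D1:**
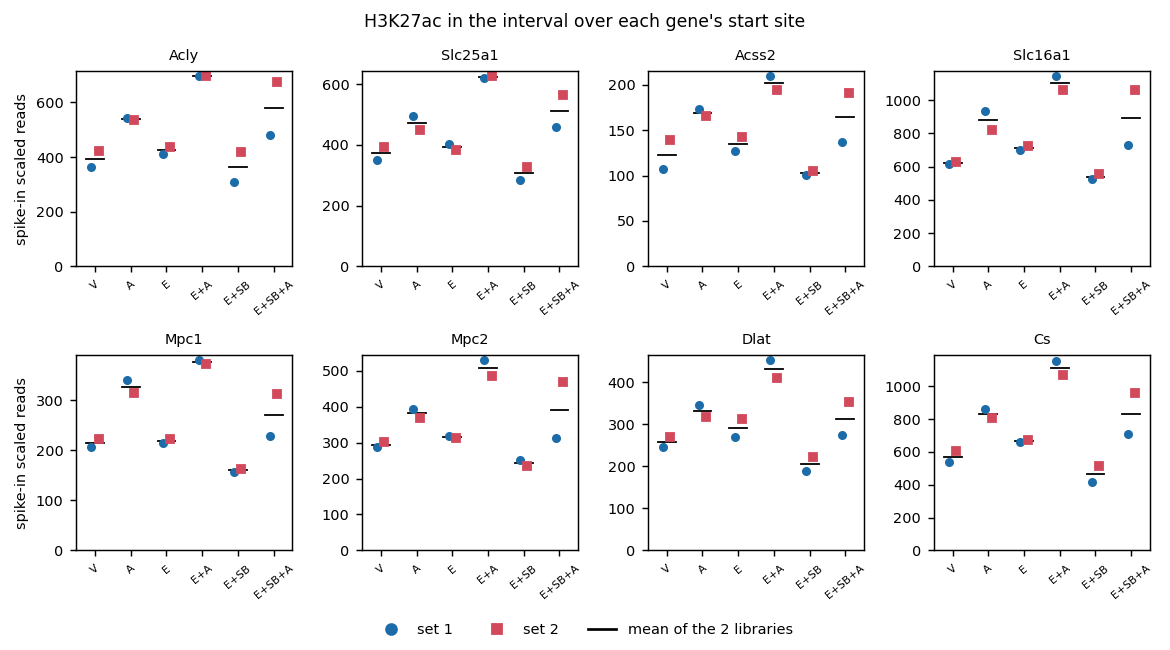
Scaled reads in the interval over the start site of each of 8 members (y axis, from 0) by treatment (x axis: V vehicle, A acetate, E etomoxir, SB SB204990). Circles are set 1, squares are set 2 and lines are the mean of 2 libraries. In all 8 panels the etomoxir + acetate mean is the highest, and Slc16a1 reaches 1146 scaled reads while Acss2 reaches 210.

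At Slc16a1 and Acss2 the start-site interval carried the symbol of a neighbour, which matters for any sum by symbol. The Slc16a1 interval was assigned to Gm43581, a non-coding gene that starts inside it, and the Acss2 interval to Ggt7, a protein-coding gene that also starts there. The assigned sum of Slc16a1 therefore came from 6 intergenic intervals upstream of the gene (132 scaled reads), and that of Acss2 from 3 weak intervals 44101 to 49577 bp into the gene (50.3 scaled reads). Across the table the same held for 2980 of the 13272 genes that had both assigned intervals and a start-site interval, or 22.5%. Starts of non-coding genes also lay inside the Slc25a1 interval (AA914427) and the Cs interval (Gm23182). The Mpc2 interval was assigned to Mpc2 but also covered the start of Dcaf6, so the mark there cannot be told apart between the genes. Values for the start-site interval are given beside the assigned sums where the call differs.

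Slc16a3 and Acss1 had no interval at a start site. Slc16a3, the transporter associated with lactate export, had a broad interval, chr11:120953355-120968287, that began 4875 bp after the start of the gene and ran past its end (gene at chr11:120948480-120960868), so part of it lies outside Slc16a3. It was 14933 bp long, held a mean of 299 scaled reads (20.0 per kb), and carried the symbol Gm28192. The 5 intervals assigned to Slc16a3 held 87.9 scaled reads in all. Acss1, the mitochondrial acetate-activating enzyme, had 2 exonic intervals of 210 and 334 bp (chr2:150626165-150626374 and chr2:150642586-150642919) that held few reads. Their sum was 2 to 22 reads per library before scaling, below the minimum mean of 10 for testing, so Acss1 is described and not tested. The other 9 genes passed that minimum, as did 27 of the 45 intervals.

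By summed intervals per kb, Mpc2 (70.2), Cs (43.8), Mpc1 (40.7) and Acly (36.1) stood above 81.6% of tested genes or more. Slc25a1 (30.0 scaled reads per kb) and Dlat (29.9) were close to each other. Slc16a3 (21.5), Slc16a1 (17.8) and Acss2 (14.0) were lower and Acss1 the lowest, and none of these 4 had a start-site interval in its sum. In 6 of the genes, Acly, Slc25a1, Mpc1, Mpc2, Dlat and Cs, the start-site interval held most of the sum, from 72.6% at Dlat to 100% at Mpc2.

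On the spike-in scale the mark was higher with acetate at the members, by about as much as at all genes. Averaged over the 3 backgrounds (no inhibitor, etomoxir, and etomoxir + SB204990), all 9 tested members were higher with acetate at an adjusted p under 0.05 (limma with Benjamini-Hochberg adjustment over 19458 genes), where 88.2% of all genes tested were higher. The members' log2 fold changes ran from 0.57 to 0.71 with a median of 0.61, and the median of all genes was 0.63. All 9 were positive in both sets. The call depended on how depth entered the scaling. The scaled reads are not divided by library depth, and where each library's reads were first expressed as a share of its total and then multiplied by the factor, 0 of 9 members and 0 of all genes passed by limma, with 0 members at an unadjusted p under 0.05. The members' median was then 0.40 and that of all genes 0.43, with adjusted p from 0.395 to 0.461.

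Cs, the enzyme that forms citrate, had the highest average acetate change of the assigned sums (log2 fold change 0.71 ± 0.11 SE, adjusted p = 1.79e-05 by limma). Its vehicle libraries held 562 and 642 scaled reads, acetate 899 and 863, etomoxir 709 and 696, and etomoxir + acetate 1232 and 1132. The etomoxir + SB204990 libraries held 437 and 552, and with acetate added 748 and 1014, set 1 first in each case. Every library with acetate was above every library without it.

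Acly, the target of SB204990, held 437 and 540 scaled reads in vehicle, 656 and 695 in acetate, 511 and 526 in etomoxir, and 902 and 902 in etomoxir + acetate. In etomoxir + SB204990 it held 360 and 555, and with acetate 611 and 837. The 6 libraries with acetate were again all above the 6 without. The order of means was etomoxir + acetate (902 ± 0.297, SD, n = 2), all agents together (724 ± 160), acetate (676 ± 27.6), etomoxir (518 ± 10.4), vehicle (488 ± 73.4) and etomoxir + SB204990 (458 ± 138). The libraries with all agents overlapped those with acetate, and the 3 treatments without acetate overlapped one another. The average acetate change at Acly was 0.65 ± 0.12 (SE) on the log2 scale, with an adjusted p of 6.16e-05 by limma.

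Such a separation of all 6 libraries with acetate from all 6 without was seen at 4 of the 9 tested members (Acly, Slc25a1, Mpc1 and Cs), against 39.3% of all genes tested. At Slc25a1, the citrate exporter, the lowest library with acetate held 530 scaled reads and the highest without held 466. At Mpc1 these values were 240 and 233. Mpc2 and Dlat overlapped slightly: the lowest Mpc2 library with acetate held 312 scaled reads against 319 in the highest without, and for Dlat 369 against 393. Etomoxir + acetate had the highest mean at 9 of the 10 genes, Acss1 being the exception, and etomoxir + SB204990 had the lowest mean at 8, vehicle being lowest at Acss2 and Acss1.

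**Figure D2:**
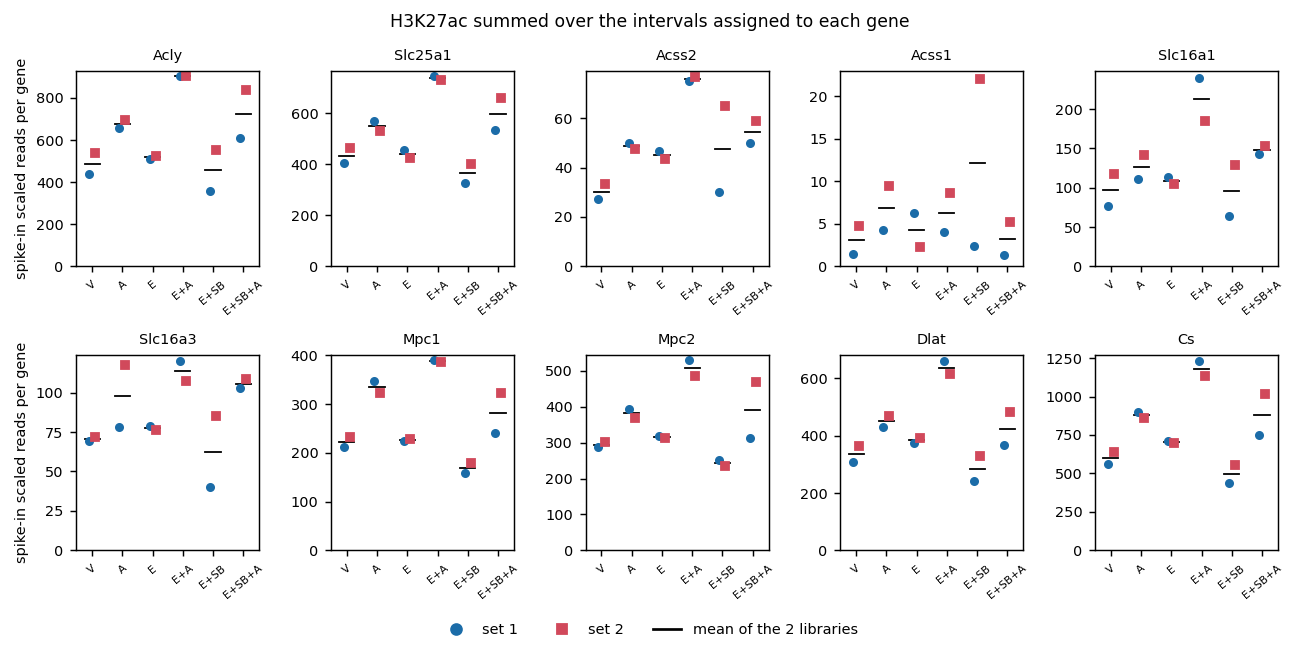
Scaled reads summed over the intervals assigned to each of the 10 genes (y axis, from 0) by treatment (x axis, V vehicle, A acetate, E etomoxir, SB SB204990). Circles are set 1, squares set 2, and lines the mean of 2 libraries. Cs spans 437 to 1232 scaled reads, and Acss1 stays at 22 or below with its highest value in the etomoxir + SB204990 library of set 2.

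Among the single backgrounds, the acetate comparison under etomoxir had the most genes past the threshold. Etomoxir + acetate against etomoxir gave 7 of 9 members higher, with 78.2% of all genes higher, and the members' log2 changes ran from 0.55 to 0.95. Acss2 (0.74 ± 0.37 SE, adjusted p = 0.0674) and Slc16a3 (0.55 ± 0.32, adjusted p = 0.116 by limma) did not pass. Under etomoxir + SB204990, adding acetate also gave 7 of 9 higher, with 57.7% of all genes higher. By limma, Acss2 (0.28 ± 0.37, adjusted p = 0.495) and Slc16a1 (0.70 ± 0.30, adjusted p = 0.0512) did not pass, and Acss2 was at -0.14 in set 2. These sums leave out the start-site intervals of Acss2 and Slc16a1. For the start-site intervals all 8 members were higher under etomoxir (92.4% of start-site genes), Acss2 by 0.58 ± 0.20 (adjusted p = 0.00540 by limma), and all 8 under etomoxir + SB204990 (89.3% of start-site genes). In the latter Acss2 rose by 0.65 ± 0.20 (adjusted p = 0.00210) and Slc16a1 by 0.70 ± 0.18 (adjusted p = 0.000239 by limma). Each of the counts of assigned sums rested on single libraries: the first fell to 3 without etomoxir + acetate replicate 1, where 5603 of 19458 genes passed. The second fell to 4 without etomoxir + SB204990 replicate 1, where 4529 genes passed, and to 0 without etomoxir + SB204990 + acetate replicate 2, where 0 genes did.

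In cells without inhibitors, acetate against vehicle gave 0 of 9 members past the threshold by limma, as for 0% of all genes. All 9 log2 changes were positive (0.34 to 0.68, median 0.43, against 0.48 for all genes), with adjusted p between 0.101 and 0.262, and 3 members had an unadjusted p under 0.05, as had 8341 of 19458 genes. edgeR on the recovered reads also called 0 members and 0 of all genes, and DESeq2 called 2 members and 3725 of 19458 genes. With the set as a block in limma, 2 members and 3888 of 19458 genes were called. The count rose to 5 without etomoxir + SB204990 replicate 1 or 2, where 11880 and 11913 of 19458 genes passed, and to 2 without replicate 1 or 2 of the treatment with all agents, where 2317 and 2316 did. For the start-site intervals alone, 5 of 8 members were higher in this comparison, where 62.9% of start-site genes were. These were Acly (0.46 ± 0.18), Acss2 (0.47 ± 0.20), Slc16a1 (0.49 ± 0.18), Mpc1 (0.61 ± 0.19) and Cs (0.54 ± 0.18, adjusted p = 0.0196 by limma). The test of whether the acetate effect differed between backgrounds gave 0 of 9 members for etomoxir against no inhibitor (0% of all genes, members' adjusted p from 0.774) and 0 of 9 for etomoxir + SB204990 against no inhibitor (0% of all genes, members' adjusted p 0.999). Both tests also gave 0 members before adjustment at a p under 0.05, and edgeR and DESeq2 called 0. The members' interaction values had wide errors, such as 0.55 ± 0.43 (SE) at Slc16a1 and 0.06 ± 0.52 at Acss2 for etomoxir.

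The start-site intervals of all 8 members that had one were higher with acetate on average, as were 98.3% of start-site genes. Their log2 changes ran from 0.51 at Dlat to 0.71 at Mpc1. At Slc16a1 the start-site interval rose by 0.61 ± 0.10 on average over the 3 backgrounds (SE, adjusted p = 1.14e-08 by limma), and its assigned upstream intervals together by 0.68 ± 0.17. Without inhibitors its start-site interval held 618 and 627 scaled reads in vehicle and 933 and 822 in acetate, a change of 0.49 ± 0.18 (adjusted p = 0.0230 by limma). At Acss2 the start-site interval held 107 and 139 scaled reads in vehicle, 173 and 165 in acetate, 127 and 142 in etomoxir, and 210 and 194 in etomoxir + acetate. It held 101 and 105 in etomoxir + SB204990 and 137 and 191 with acetate added, and its average acetate change was 0.57 ± 0.12 (adjusted p = 1.82e-06 by limma). Both sets moved the same way in each of these. The p-values of start-site intervals take their spread wholly from all genes tested in that fit, so they are likely too small.

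**Figure D3:**
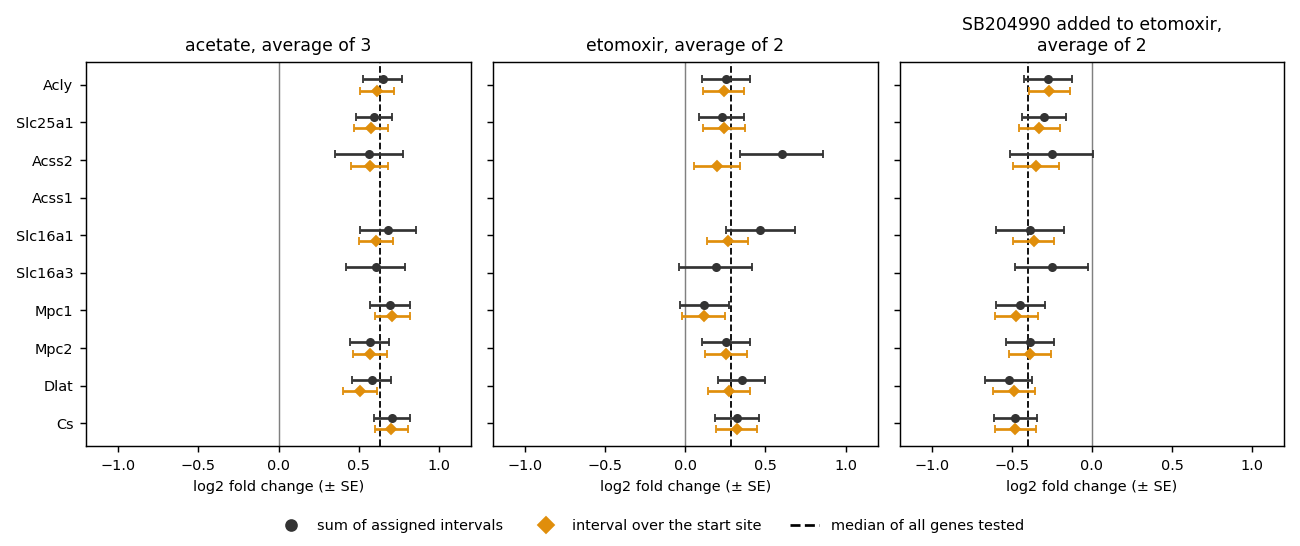
Average log2 fold changes (x axis, ± SE) of the members (y axis) for acetate, for etomoxir and for SB204990 added to etomoxir. Circles are sums of assigned intervals, diamonds the start-site interval, and the dashed line is the median of all genes tested (0.63, 0.29 and -0.40). Most members lie within 1 SE of the dashed line, and the Acss2 circle lies to its right for etomoxir while its diamond does not.

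Interval by interval, 22 of 27 tested intervals of the members were higher with acetate on average, against 77.2% of the 63903 intervals tested. The largest changes among them were outside the promoters. An intergenic interval whose near edge lies at -20054 bp from the start of Slc25a1 (chr16:17948273-17950290) rose by 1.06 ± 0.24 (SE, adjusted p = 4.38e-05 by limma), from 16.4 and 21.4 scaled reads in vehicle to 38.6 and 29.3 in acetate, and from 17.1 and 15.5 in etomoxir to 55 and 51.8 in etomoxir + acetate. An interval 11497 bp into Acly (chr11:100514875-100516503) rose by 0.98 ± 0.24 (adjusted p = 0.000111 by limma), and one at -6636 bp from the start of Cs (chr10:128330333-128331098) by 0.91 ± 0.30 (adjusted p = 0.00532). These 3 intervals rose in both sets but held few reads, with means of 29.4, 30.6 and 13.4 scaled reads. The broad interval that begins in Slc16a3 and ends beyond it, which carries another symbol and was described after its values were seen, rose by 0.96 ± 0.12 (adjusted p = 8.38e-13 by limma). It went from 166 and 242 scaled reads in vehicle to 308 and 380 in acetate, and from 256 and 187 in etomoxir to 546 and 447 in etomoxir + acetate, so that each set rose in each background.

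After median-of-ratios scaling, which sets the typical gene to no change, 0 of 9 members differed with acetate on average by limma, where 0.0411% of all genes did. The members lay between -0.07 (Mpc2) and 0.07 (Cs) on the log2 scale, 4 above and 5 below 0, with adjusted p from 0.654 to 0.960, and 0 had an unadjusted p under 0.05. The broad interval that begins in Slc16a3 was at 0.32 ± 0.11 (SE) on this scale and did not pass (adjusted p = 0.673 by limma). edgeR and DESeq2 were not run on this scale.

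With etomoxir no member passed the threshold. In etomoxir against vehicle 0 of 9 were called by limma (0.0154% of all genes were higher). Before adjustment, 0 had a p under 0.05, and edgeR and DESeq2 also called 0. Averaged without and with acetate, 0 of 9 were called, where 0.298% of all genes were called higher. Before adjustment 4 of 9 had a p under 0.05, as had 5342 of 19458 genes, and edgeR and DESeq2 called 0. Without etomoxir + SB204990 replicate 1 or 2 the count was 4, and 6300 and 6360 of 19458 genes passed in the same fits. All 9 averages were positive, from 0.12 at Mpc1 to 0.60 at Acss2, with a median of 0.26 against 0.29 for all genes. By interval 0 of 27 were called for this average, where 0.421% of all intervals were. Before adjustment 4 of 27 had a p under 0.05, as had 13458 of 63903 intervals. After median-of-ratios scaling, 0 of 9 were called, where 0.293% of all genes were called. On this scale 1 member had an unadjusted p under 0.05 by limma, as had 1462 of 19458 genes.

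That member was Acss2. On the spike-in scale its assigned sum held 27.1 and 33.3 scaled reads in vehicle, 46.9 and 43.5 in etomoxir, 50.1 and 47.4 in acetate, and 75 and 76.8 in etomoxir + acetate. The etomoxir libraries were above the vehicle libraries, and those with both agents were above those with acetate. The average etomoxir change was 0.60 ± 0.26 (SE, adjusted p = 0.181 by limma), above 97.1% of all genes tested, and after median-of-ratios scaling it was 0.32 ± 0.14 (adjusted p = 0.631). The intervals behind this sum lie far inside the gene, counted from its outermost start, and held 42 to 83 reads per library before scaling. The authors' annotation puts them at -5580, -2961 and -861 bp from a start of Acss2, the last as promoter-TSS. The start-site interval had an average etomoxir change of 0.20 ± 0.14, above 21.9% of start-site genes. In etomoxir + SB204990 the assigned sum was 30.3 scaled reads in set 1 and 65 in set 2, the library with the higher share of reads in weak intervals. These libraries enter the etomoxir average only through the shared estimate of spread, and the value of 0.60 had an adjusted p by limma of 0.0217 without replicate 1 of that treatment and 0.0218 without replicate 2.

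The values of Slc16a1 under etomoxir differed between the 2 sets, which was not tested. The average etomoxir change of its assigned upstream intervals was 0.83 in set 1 and 0.11 in set 2, with a fitted value of 0.47 ± 0.21 (SE, adjusted p = 0.181 by limma). Its start-site interval changed by 0.24 and 0.29 in the 2 sets. Mpc1, one of the pyruvate carrier subunits, had the smallest average etomoxir change, 0.12 ± 0.15, above 11.1% of all genes.

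Adding SB204990 to etomoxir went with lower values, averaged without and with acetate. Mpc1, Mpc2, Dlat and Cs were lower at an adjusted p under 0.05 by limma, which is 4 of 9 where 45.0% of all genes were lower. Their log2 changes were -0.45 ± 0.15 (SE) at Mpc1, -0.39 ± 0.15 at Mpc2, -0.52 ± 0.15 at Dlat and -0.48 ± 0.14 at Cs. The adjusted p ranged from 0.0276 at Dlat and Cs to 0.0399 at Mpc2. The other 5 members, Acly (-0.27 ± 0.15), Slc25a1 (-0.30 ± 0.14), Acss2 (-0.25 ± 0.26), Slc16a1 (-0.39 ± 0.21) and Slc16a3 (-0.25 ± 0.23), did not pass, although the value of Slc16a1 was as low as that of Mpc2. With 1 library left out the change ran from -0.64 to -0.13 at Slc16a1, from -0.43 to -0.12 at Acly and from -0.54 to -0.24 at Mpc2. The median over members was -0.39, and over all genes -0.40.

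Dlat, the acetyltransferase of pyruvate dehydrogenase, held 375 and 393 scaled reads in etomoxir and 241 and 329 in etomoxir + SB204990. With acetate it held 662 and 614 in etomoxir, and 369 and 481 when SB204990 was added. Both SB204990 libraries were below both libraries without it in each background. For Acly the values in etomoxir + SB204990 (360 and 555) lay on both sides of those in etomoxir (511 and 526).

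The 2 sets differed in size here. Over all genes the median change on adding SB204990 was -0.65 in set 1 and -0.13 in set 2. Cs changed by -0.71 and -0.25, Dlat by -0.74 and -0.30, Mpc1 by -0.60 and -0.30, and Mpc2 by -0.55 and -0.22 in set 1 and set 2. Acly changed by -0.53 and -0.02, and Acss2 (0.10), Slc16a1 (0.01) and Slc16a3 (0.08) were above 0 in set 2. The count of 4 went to 0 when any of 5 libraries was left out (either etomoxir library, either etomoxir + acetate library, or replicate 1 of etomoxir + SB204990 + acetate), and to 9 without etomoxir + SB204990 replicate 2. In the first 5 fits 0 of all genes passed while the members' median stayed between -0.42 and -0.24, and in the last 16566 of 19458 passed. Without an intensity trend in limma the count was also 0, with the members' median unchanged at -0.39 and 1 of 19458 genes passing. For the start-site intervals all 8 members were lower, as were 84.9% of start-site genes, with Acss2 at -0.35 ± 0.14 and Slc16a1 at -0.36 ± 0.13. Acly (-0.27 ± 0.13, adjusted p = 0.0464) and Slc25a1 (-0.33 ± 0.13, adjusted p = 0.0154 by limma) also passed there. By interval, 5 of 27 were lower against 19.2% of all intervals. With reads as shares of the library multiplied by the factor, 0 of 9 members and 0 of 19458 genes were lower by limma. The members' median was -0.12 and that of all genes -0.13, with 0 members at an unadjusted p under 0.05. After median-of-ratios scaling 0 of 9 members differed by limma (0% of all genes). On that scale 1 member had an unadjusted p under 0.05, as had 1273 of 19458 genes. It was Dlat, at -0.14 ± 0.06 (adjusted p = 0.764 by limma).

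**Figure D4:**
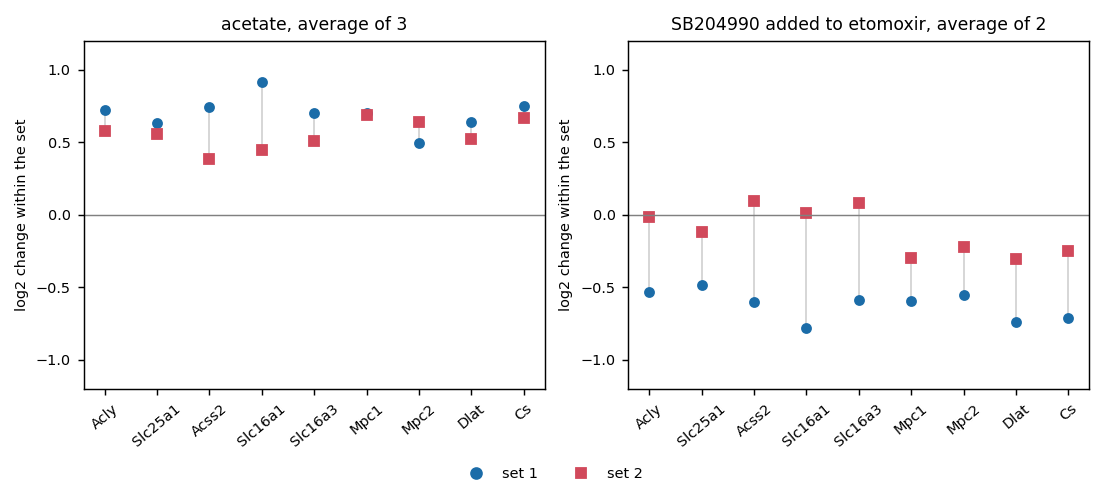
Log2 change of the assigned sum within set 1 (circles) and set 2 (squares) for the 9 tested members (x axis), for the average acetate effect (left) and for SB204990 added to etomoxir (right). Acetate changes are above 0 in both sets at every gene, while SB204990 changes in set 2 lie closer to 0 than in set 1, with Cs at -0.25 against -0.71.

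Against vehicle, the combination of etomoxir and SB204990 gave 0 of 9 members past the threshold by limma, where 0.00514% of all genes were higher. No member had a p under 0.05 before adjustment, and edgeR and DESeq2 called 0. Leaving out 1 etomoxir + SB204990 library gave calls in opposite directions: 1 member higher without replicate 1, where the fit called 1091 of 19458 genes, and 1 member lower without replicate 2, where it called 2401. Of the members, 8 had negative values, from -0.39 ± 0.22 (SE) at Mpc1 to -0.07 ± 0.30 at Slc16a1, and Acss2 was at 0.55 ± 0.37. The Acss2 sum was 30.3 and 65 scaled reads in etomoxir + SB204990 against 27.1 and 33.3 in vehicle, set 1 first. Its value thus rested mostly on set 2. The start-site interval of Acss2 was at -0.24 ± 0.20 in the same comparison. By interval, 0 of 27 passed (0.0532% of all intervals), with 1 at an unadjusted p under 0.05, as had 3234 of 63903 intervals.

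Acss1 is given as values only. Its scaled reads in set 1 and set 2 were 1.40 and 4.75 in vehicle, 4.23 and 9.48 in acetate, 6.29 and 2.29 in etomoxir, and 4 and 8.64 in etomoxir + acetate. In etomoxir + SB204990 they were 2.39 and 22, and with acetate added 1.29 and 5.20. No treatment stood apart from the others in both sets. The value of 22 was in the library with 6.61% of its reads in weak intervals, and the part of that library in it was not tested.

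Of 29 further genes of acetyl-CoA and citrate metabolism, 23 had an assigned interval and 21 passed the minimum mean. With acetate on average 20 of 21 were higher (88.2% of all genes), with a median of 0.60. The exception was Slc16a7, another monocarboxylate transporter, at 0.34 ± 0.33 (SE, adjusted p = 0.327 by limma). Among those that rose were Idh2, the mitochondrial isocitrate dehydrogenase (0.77 ± 0.12), Bsg, the chaperone of Slc16a1 and Slc16a3 at the membrane (0.73 ± 0.12), Pdhb, a subunit of pyruvate dehydrogenase (0.64 ± 0.12), and Acat2, a thiolase that uses acetyl-CoA (0.52 ± 0.15). Adding SB204990 to etomoxir gave 11 of 21 lower (45.0% of all genes), among them Pdp1, a phosphatase that activates pyruvate dehydrogenase (-0.69 ± 0.24), Pdhx (-0.43 ± 0.15) and Dld (-0.47 ± 0.17), both parts of the same complex. Etomoxir on average gave 0 of 21 past the threshold by limma (0.298% of all genes were higher), with 10 at an unadjusted p under 0.05, as had 5342 of the 19458 genes tested.

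Likeness was described by Pearson's r of log2 values over the 12 libraries after median-of-ratios scaling, among 13180 genes with a mean of at least 100. The genes most like Acly were Adgrg3 (r = 0.893), Gm40723 (0.881) and Slc1a4 (0.876). For Acss2 they were Esam (0.888), Gm12145 (0.884) and Pum3 (0.883), and for Acss1 Gm15893 (0.903), Sfxn2 (0.891) and Gm28465 (0.871). The points share libraries, depth and scaling, and the Acss1 values rest on few reads per library, so these are descriptions only.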

How the data were processed

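ChIP-seq for H3K27ac was analysed in 12 libraries of 4T1 cells, 2 for each of 6 treatments. Chromatin was digested with micrococcal nuclease, and reads were mapped by the authors to a merged human and mouse genome with the nf-core/chipseq workflow. The submitters' processing notes name GRCm38 (mm10), GRCh38 and deepTools. The peak caller settings are not given in the sources used here. The authors deposited 1 table of consensus intervals with a gene symbol for each, and the signal of each library was its reads multiplied by a spike-in factor that the authors derived from the share of human reads. In the library of each set whose factor was 1, the deposited values are raw counts. Every value, within 0.001, was a whole multiple of the library's factor, in 100% of values, so whole reads were recovered. Depth is not divided out of the scaled values, so a difference in depth that the factor does not balance remains in them.

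Intervals were summed by symbol. Sums or intervals with a mean of at least 10 were tested with limma 3.58.1 (R 4.3.3) on log2(value + 1), with an intensity trend, 6 group means and Benjamini-Hochberg adjustment over all 19458 genes or 63903 intervals at 0.05. A fold change on this scale understates the change of low genes. Changes relative to all genes used median-of-ratios scaling. Alternatives were total-sum scaling, shares multiplied by the factor, a pseudocount of 10, other filters, edgeR 4.0.16 and DESeq2 1.42.0 on recovered reads, the set as a block, and leaving out each library. Start-site intervals were those over a GENCODE M21 start, an alternative chosen after seeing the data. In that fit limma took each gene's spread wholly from the trend over all genes. Its p-values therefore equal those of a normal test and are likely too small for 2 libraries a treatment. The model steps were tested on simulated data. The simulated libraries held few changed genes and no scale error shared by all genes of a library, so they do not show that the calls hold here. Members, gene lists and tests were chosen with earlier results of these data known. All 10 members are named, with their start-site or nearest interval, up to 3 of their intervals with the largest change among those called in a comparison in the same direction in both sets, and the 3 genes of most similar pattern for Acly, Acss1 and Acss2. Named genes of the wider pathway are examples from its list, chosen after their values were seen. The result for 1 marker of other cell types is not reported here.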

Additional observations from a re-analysis of the deposited data

How the results depend on the processing

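Among the alternatives, 304 counts of members kept their value or close to it and 39 did not. The 304 include counts of 0 that stayed 0, as for both interactions and etomoxir against vehicle. The tally therefore does not measure how robust the calls are. For single members 545 values kept their direction and side of the threshold, 56 lost the call, 22 gained it and 34 changed sign. Scalings that drop the spike-in or divide by depth ended the calls: under median-of-ratios scaling, total-sum scaling and shares multiplied by the factor, 0 members passed in etomoxir + acetate against etomoxir, in etomoxir + SB204990 + acetate against etomoxir + SB204990, in the average acetate effect and in the average effect of adding SB204990. In the same fits 0 of 19458 genes passed, except for average acetate, with 8 under median-of-ratios and 42 under total-sum scaling. With shares multiplied by the factor the members' median in these 4 comparisons was 0.77, 0.28, 0.40 and -0.12, so under etomoxir the change was as large as the reported 0.74 and only the call was lost. Intervals with acetate went from 22 to 0 under median-of-ratios scaling (0 of 63903 intervals). They went to 7 of 7 with a mean of at least 50, where fewer intervals are tested (23901 of 24109 intervals passed). Acetate against vehicle gave 2 of 9 members with DESeq2 (3725 of 19458 genes), 2 of 9 with the replicate block (3888 genes), 3 of 6 with the interval nearest the start (3709 of 13883 genes) and 5 of 8 with start-site intervals (11093 of 17628 genes). SB204990 gave 0 of 9 without an intensity trend (1 of 19458 genes) and 8 of 8 with start-site intervals (14996 of 17628 genes), and the causes were not tested.

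Scalings without the spike-in shift all genes together (median-of-ratios took the all-gene median for acetate from 0.63 to 0.00021), so members near that median change sign by construction. The average acetate change did so under median-of-ratios and total-sum scaling at Slc25a1 (-0.038 and -0.028), Acss2 (-0.058 and -0.048), Slc16a3 (-0.023 and -0.013), Mpc2 (-0.066 and -0.056) and Dlat (-0.055 and -0.045). That of etomoxir reversed at Acly (-0.034 and -0.013), Slc25a1 (-0.063 and -0.042), Slc16a3 (-0.097 and -0.076), Mpc1 (-0.17 and -0.15) and Mpc2 (-0.033 and -0.012). That of SB204990 reversed at Acly (0.11 and 0.12), Slc25a1 (0.085 and 0.095), Acss2 (0.13 and 0.14) and Slc16a3 (0.13 and 0.14), and under total-sum scaling at Slc16a1 (0.0054) and Mpc2 (0.0040). With shares multiplied by the factor, it was 0.017 at Acss2 and 0.017 at Slc16a3. Leaving out each library in turn, it ran from -0.52 to 0.019 at Acss2 and from -0.52 to 0.014 at Slc16a3, above 0 without etomoxir + SB204990 replicate 1.

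Under the same omissions, with the count over all 19458 genes in parentheses, acetate against vehicle gave 0 to 5 members (0 to 11913 genes), etomoxir + acetate against etomoxir 3 to 9 (5603 to 17931), etomoxir + SB204990 + acetate against etomoxir + SB204990 0 to 9 (0 to 17778), average acetate 9 to 9 (15792 to 19172), etomoxir + SB204990 against vehicle 0 to 1 (0 to 2401), average etomoxir 0 to 4 (22 to 6360) and SB204990 0 to 9 (0 to 16566). Of the members' intervals, 17 to 27 passed for acetate (37220 to 60579 of 63903 intervals) and 0 to 1 for etomoxir (78 to 6965). The lone sample left in an arm is assumed to vary like the other groups. With the set as a replicate block, acetate against vehicle moved from 0 to 3888 genes, and average etomoxir from 58 to 262 genes with 0 members. Same-set deviations correlated from -0.22 to 0.60 over 15 pairs of treatments (median -0.14). This correlation runs over genes, so a shift shared by all genes of a library cannot show in it. The labels do not say what the shared suffix marks, so whether the libraries of a set are paired was not settled, and the reported fit has no block. Each set has 1 library with a spike-in factor of 1, and the paper states that factors were set relative to the highest. The factors thus appear to be scaled within each set. A scale difference between sets can therefore enter the spread of the reported fit. With 2 libraries a treatment, small differences were not detectable, and Acss1 could not be tested at 2 to 22 reads.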
